A study of Homo sapiens with 12 samples.

Results

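The response of nontargeting control cells to triptolide was examined gene by gene, to ask which functions of the cell lost most and least mRNA. The comparison used the 4 libraries labelled NONT of the 12 in the series. They came from U2OS osteosarcoma cells transfected with a plasmid that carried Cas9 and a guide RNA with no target in the genome, and the 2 treated libraries had received 1 μM triptolide for 8 h while the 2 untreated ones had not. The other 8 libraries came from cells given a NUP93 or an EXOSC5 guide in the same way, with and without the drug. They entered the model to estimate the spread, the filter on untreated values, and the gene means used to shift each library to the median gene. Their values are given beside the NONT values for some gene lists and in a closing comparison of genotypes. The guides acted in pools of transfected cells selected with puromycin, and not in clones. The values were gene-level signals scaled to ERCC spike-in RNAs that the authors had added per cell. Genes were included when their mean over the 6 untreated libraries was at least 10, which kept 13811 of 22379 genes. Just outside this limit lay LRRIQ1 with a mean of 9.97, and just inside lay HSFX1 with 10.01. A gene seen only after the drug could not enter.

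Triptolide binds XPB, a subunit of the initiation factor TFIIH, and stops RNA polymerase II from starting transcription. Messages already made are then no longer replaced, and each falls at the pace at which the cell degrades it. Messages for signalling feedback proteins and transcription factors are known for rapid turnover, and those for metabolic enzymes and ribosomal proteins for slow turnover. The mRNAs encoded in mitochondrial DNA are made by a separate polymerase that triptolide does not target.

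The NONT libraries held about 9.38 to 11.96 M reads, as judged from the spacing of the lowest values, so that 3 reads were worth between 1.47 and 5.27 units. Values below that were too few to count reliably. The untreated replicates differed in scale: their summed gene values were 11.3 and 16.4 M units, against 5.94 and 4.90 M units after triptolide. The spike-ins were added for a counted number of cells, so the values stand for mRNA per counted cell, and less RNA per cell cannot be told apart from an error in the cell count or the spike-in volume. Markers of a mesenchymal bone tumour line were present, with untreated values of VIM at 45686 and 66974, of COL1A1 at 39198 and 57588 and of SPARC at 13460 and 19756. COL1A2 (20.1 and 20.3), BGLAP (0.93 and 1.72) and TWIST1 (0 in all 4 libraries), also on the bone list, were low or absent. The epithelial keratins KRT18 (8846 and 13637) and KRT8 (793 and 1338) were present, and EPCAM and CDH1 were low, at most 69.7. The blood marker CD3E was listed at 0 in all 4 libraries, PTPRC stayed at or under 3.07, and ITGAM was 22.2 and 28.7 without drug. Of the endothelial markers CDH5 and PECAM1 stayed at or under 4.32 and VWF was 55.5 and 24.2. The part of other cells in the results was not tested.

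On the spike-in scale the typical gene kept 31.4% of its untreated value, and the middle 80% of genes kept between 5.34% and 56.1%. The median log2 change was −1.62, with single pairings of a treated and an untreated library between −2.03 and −1.23. In limma, 12427 genes were lower (90.0% of those tested) and 7 were higher (0.0507%) at an adjusted p-value under 0.05. The 7 became 7 to 16 when each NONT library was left out in turn. With every library set to the same total, 5270 were lower and 2105 higher. Since almost all genes fell, the question of which functions lost most and least was put on a second scale, on which each library was shifted by its median difference over all tested genes. A change on this scale, called relative below, is a log2 difference between treated and untreated libraries with the shift of the median gene taken out. On it 4001 genes lay below the median gene (29.0%) and 3961 above it (28.7%). The spread was one-sided: the 10th percentile of genes lay at −2.29 and the 90th at 0.87.

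The position of the zero depended on how the typical gene was defined. Setting each library to its median log2 value moved the median of all genes from 0.05 to 0.55 and gave 2776 genes below and 6263 above. Setting each library to the same total moved it to −0.32 and gave 5270 below and 2105 above. With a required distance of at least 0.5, 2712 genes lay below and 1249 above. Lists with a median near 0 are therefore described as lying near the median gene.

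The 74 gene lists were grouped in 8 themes by known function. They were chosen with earlier results of these data known, so their order is a description and not a test. Counts of members below and above are to be read against the 29.0% and 28.7% of all genes. The lowest and highest member of a list are named below from those whose untreated mean reached 100. Genes of signalling and gene control lay lowest: the median relative change of 690 genes was −1.55, and 423 lay below the median gene against 40 above. Genes of metabolism lay highest, with a median of 0.71 over 261 genes, 196 above and 20 below. Protein synthesis (0.39, 183 above and 76 below of 328) and membranes, secretion and matrix (0.37, 207 above and 73 below of 501) also lay above. Cell structure and division (0.02 over 367 genes) and protein folding and turnover (0.12 over 248) lay near the median gene. Transcription machinery and RNA processing had a median of −0.17 over 349 genes, with 150 below (43.0%, against 29.0% of all genes) and 100 above. Death and stress genes had a median of −0.45, with 54 below (44.6%) and 31 above (25.6%) of 121. In all 4 pairings of treated and untreated libraries, 35 of the 74 lists had a median below 0 and 33 had one above.

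**Figure D1:**
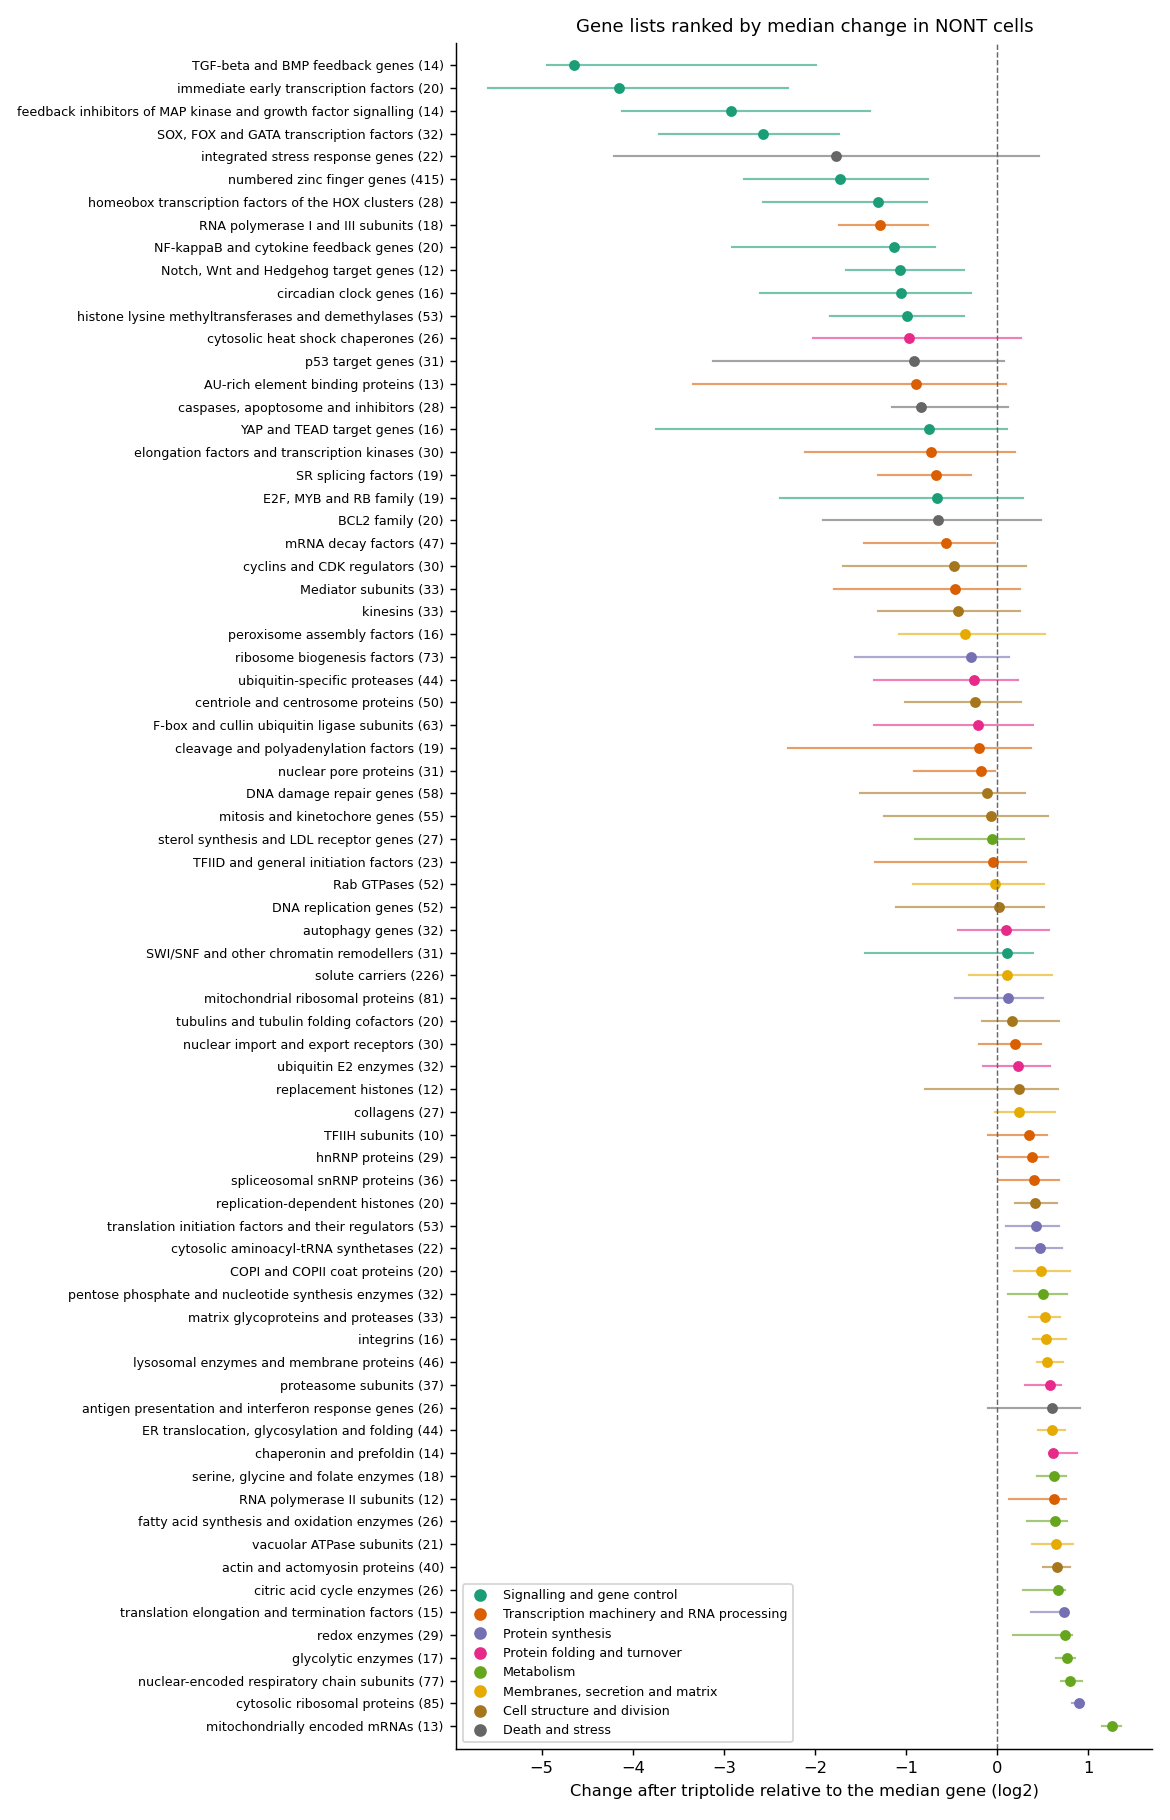
The 74 gene lists in order of their median change after triptolide, relative to the median gene (x axis, log2; dashed line, 0), with the number of tested genes in brackets. Points are medians, lines run from the lower to the upper quartile of the members, and colours mark the 8 themes; medians range from −4.65 for TGF-beta and BMP feedback genes to 1.26 for mitochondrially encoded mRNAs.

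The deepest loss was seen in genes that restrain TGF-beta and BMP signalling. All 14 tested members of this list lay below the median gene, with a median of −4.65, and the median member kept 1.00% of its untreated value. BAMBI, a decoy receptor, had the lowest value: it was 145 and 204 in the untreated libraries and 0 in both treated ones. The inhibitory SMAD7 fell from 367 and 371 to 3.29 and 3.20, and ID1, a dominant negative partner of helix-loop-helix factors, from 2876 and 4143 to 30.1 and 25.4. None of these treated values overlapped the untreated ones, on a scale on which 90.0% of all genes were lower. The member nearest the median gene was SMURF2, a ubiquitin ligase for SMAD proteins, at −0.98 ± 0.08 (SE, adjusted p = 3.5e-06). The list medians in NUP93 and EXOSC5 cells, each against its own untreated libraries, were −3.95 and −4.04.

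Immediate early transcription factors, which growth factors and stress switch on within minutes, came next, with 16 of 20 below the median gene, none above and a median of −4.15. JUN, a subunit of AP-1, was 337 and 493 without drug and was not detected in either treated library, which makes it at least 253-fold lower when 3 reads per library are taken as the limit. MYC, a growth-promoting factor, was 870 and 1431 in untreated and 2.39 and 1.74 in treated cells, a relative change of −6.85 ± 0.19 (SE, adjusted p = 1.4e-08). EGR1 fell from 458 and 627 to 1.81 and 2.45. SRF, the factor that drives many of these genes, had the highest value of the list, at 0.21 ± 0.10 (SE, adjusted p = 0.104). FOSB, NR4A3 and NR4A1 had negative values that did not pass the test, at untreated means of 22.2, 48.2 and 133. The NUP93 and EXOSC5 medians of the list were −3.64 and −3.66.

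Feedback inhibitors of MAP kinase signalling had a median of −2.92, with 12 of 14 below. DUSP1, a phosphatase that switches off MAP kinases, was 1223 and 1713 without drug and 3.01 and 0.49 with it, a relative change of −7.54 ± 0.39 (SE, adjusted p = 1.7e-07). The feedback inhibitor ERRFI1 was the least reduced at −0.75. Among NF-kappaB and cytokine feedback genes the median was −1.13, with 12 below and 2 above of 20. NFKBIA, which holds NF-kappaB in the cytoplasm, fell from 337 and 490 to 1.09 and 0. SOCS3, an inhibitor of cytokine receptors, fell from 266 and 353 to 0.60 and 0.49. The chemokine CXCL8 stood apart in this list, at 61.2 and 60.4 without drug and 49.0 and 65.5 with it, 1.57 ± 0.25 above the median gene (SE, adjusted p = 0.00033).

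The 3′ untranslated regions of several of these messages carry AU-rich elements, short motifs that recruit proteins which hasten decay. The heptamer TATTTAT, searched on the sense strand of the 3′ untranslated region of the canonical transcript of GENCODE 44, was present in 36.9% of all tested genes with such a region. It was found in 75% of immediate early factors, 64.3% of TGF-beta and BMP feedback genes and 57.1% of MAP kinase feedback genes, but in 10.6% of cytosolic ribosomal proteins and 5.56% of spliceosomal snRNP proteins. The lists also differed in length, and the median 3′ untranslated region was 1378.5 bases over all genes. It was 1295.5 in immediate early factors, 1778.5 in TGF-beta and BMP feedback genes and 1517 in MAP kinase feedback genes. In snRNP proteins it was 432.5 and in ribosomal proteins 158. The windows below, in GRCh38 coordinates, are shown because they hold the first such heptamer (capitals) of 5 of the lowest genes described here, and each is read 5′ to 3′ along the message.
DUSP1 (chr5:172768643-172768672, minus strand): agggctggtcctTATTTATttaacttcacc
JUN (chr1:58780819-58780848, minus strand): tttgcttatgaaTATTTATaacagcattct
PPP1R15B (chr1:204405738-204405767, minus strand): cttggaaaacaaTATTTATagggcttaaag
NFKBIA (chr14:35401699-35401728, minus strand): gaccacattttaTATTTATtgtgcttcgag
SOX9 (chr17:72125497-72125526, plus strand): acttgctaaaatTATTTATtttgtaaggag

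The heptamer did not mark all of the lowest genes. DDIT4, CITED2, FASTKD5, PRAG1 and BAMBI had none in this region, although their relative changes were between −7.61 and −5.76. Across all genes the motif went with a small shift. Genes without it had a median relative change of 0.14 (8165 genes), those with 1 copy −0.08 (2679), those with 2 copies −0.16 (1136), those with 3 or 4 copies −0.26 (730) and those with 5 or more −0.13 (224). Within regions of at least 500 and under 1000 bases the medians were 0.08 without the motif and −1.16 for the 26 genes with 3 or more copies, but within regions of at least 4000 bases both were −0.23. These are descriptions over genes, which are not replicates.

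Transcription factors of development lay almost as low. Of 32 SOX, FOX and GATA factors 29 lay below the median gene, and the list median was −2.57. SOX9, a regulator of cartilage formation, fell from 730 and 1031 to 4.82 and 0.98, a relative change of −6.33 ± 0.33 (SE, adjusted p = 1.9e-07). FOXM1, which drives genes of mitosis, was the exception, at 4276 and 5913 without drug and 2109 and 1890 with it. Its relative change of 0.34 passed the test but no longer did so without untreated replicate 1, untreated replicate 2 or treated replicate 2. Among HOX genes, which set position along the body axis, 17 of 28 lay below and none above, with a median of −1.31. HOXA11 had the lowest value, from 257 and 339 to 2.62 and 0, and HOXB7 the highest, at 0.05.

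Numbered zinc finger genes (ZNF), most of which encode DNA-binding proteins, formed the largest list. Of 415 tested members 248 lay below the median gene and 12 above, and the median was −1.72. ZNF503 had the lowest value at −5.85 ± 0.50 (SE) and ZNF358 the highest at 0.85 ± 0.13. The same held for other zinc finger families defined by symbol: medians were −1.82 over 38 ZBTB genes, −1.79 over 18 ZFP genes and −1.72 over 16 ZSCAN genes. Among them ZBTB20 was an exception, at 204 and 190 untreated and 201 and 170 treated. Histone lysine methyltransferases and demethylases, which write and erase marks on chromatin, had a median of −0.98 with 32 of 53 below, while SWI/SNF and other remodellers, which move nucleosomes, lay near the median gene at 0.11 with 10 below and 10 above of 31. CHD1, a remodeller of transcribed genes, was the lowest of these at −5.42 and CHD3 the highest at 0.93.

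Targets of other pathways were mixed. Notch, Wnt and Hedgehog targets had a median of −1.06 with 4 of 12 below (33.3%, against 29.0% of all genes). The Notch target HES1 was the lowest and fell from 325 and 458 to 0 and 1.48. Of 16 YAP and TEAD targets 10 lay below and 3 above. The secreted matrix protein CCN1 fell from 4251 and 6258 to 22.0 and 28.4, whereas CRIM1 lay at 0.73. Of 16 clock genes 9 lay below, with NFIL3, a repressor, at −5.25, and BMAL2, a clock activator, above at 0.99. Of 19 members of the E2F, MYB and RB family 10 lay below and 5 above, from E2F6 at −4.29 to the pocket protein RBL2 at 1.08.

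**Figure D2:**
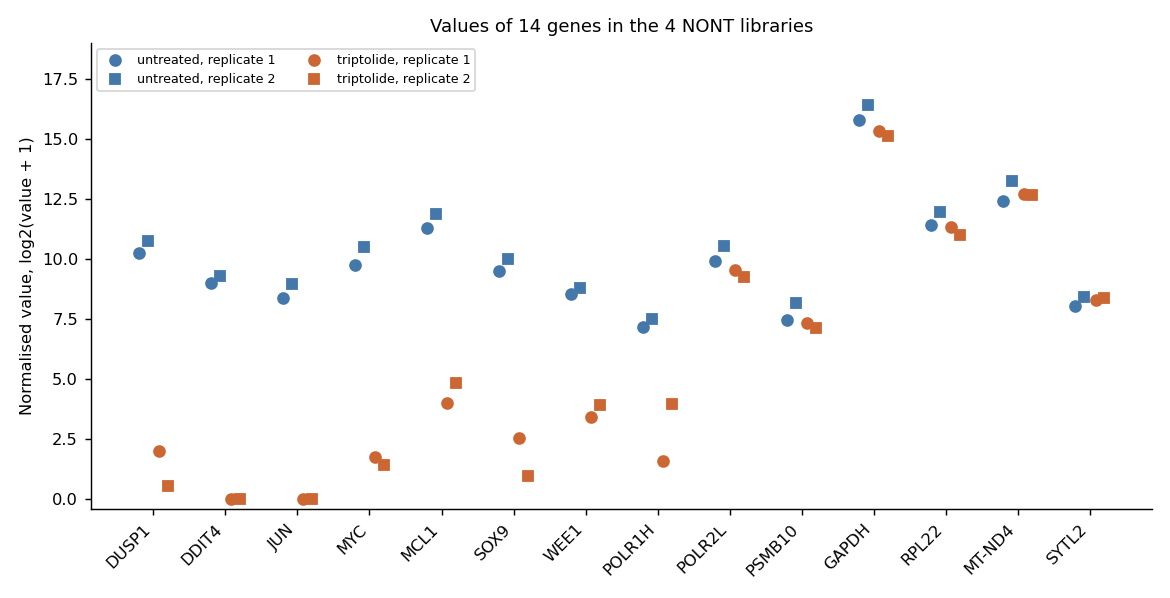
Values of 14 genes in the 4 NONT libraries, as log2(value + 1) on the y axis; blue symbols are untreated and orange symbols treated libraries, circles replicate 1 and squares replicate 2. Treated values of DUSP1, DDIT4, JUN and MYC sit close to 0, those of POLR2L and GAPDH lie just under the untreated ones, and those of SYTL2 lie among them.

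Among the machineries of transcription, subunits specific to RNA polymerases I and III, which make ribosomal and transfer RNA, had a low median: 15 of 18 lay below the median gene, 2 above, and the median was −1.28, with 12.8% of the untreated value kept by the median subunit. The 12 subunits of RNA polymerase II, some of which all 3 polymerases share, had a median of 0.63, with 8 above and 1 below and 48.1% kept. POLR1A, the largest subunit of polymerase I, fell from 1998 and 3312 to 381 and 285, a relative change of −1.29 ± 0.18 (SE, adjusted p = 0.00012). POLR1H was the lowest of its list, at 143 and 179 untreated and 2.07 and 14.5 treated. The alternative polymerase III subunits POLR3G and POLR3GL lay above the median gene, at 0.59 and 1.09. Among polymerase II subunits POLR2D was the lowest at −1.14, and POLR2L, shared by all 3 polymerases, the highest at 0.85, with 973 and 1476 untreated and 754 and 610 treated. POLR2A, the catalytic subunit, was assigned only 4.32 and 43.0 without drug and 8.18 and 0 with it, so its change could not be read. The NUP93 and EXOSC5 medians were −0.70 and −0.89 for the first list and 0.66 and 0.58 for the second.

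TFIIH, the complex that triptolide acts on, had a median of 0.35 over its 10 subunits. ERCC3, which encodes the drug's target XPB, was 850 and 1178 without drug and 459 and 387 with it, 0.43 ± 0.08 above the median gene (SE, adjusted p = 0.00062). CDK7, its kinase, was the only subunit below, falling from 248 and 574 to 8.25 and 4.87, a relative change of −4.01 ± 0.44 (SE, adjusted p = 2.3e-05). The cyclin partner of CDK7, CCNH, lay above at 0.58. Subunits of TFIID and other initiation factors lay near the median gene (−0.05), from TAF5 at −4.63 to TAF10 at 1.10. Of 23, 7 lay below (30.4%, against 29.0% of all genes) and 6 above (26.1%, against 28.7%). Mediator, which links activators to the polymerase, lay lower (−0.46, 18 below and 5 above of 33), from MED26 at −4.82 to MED24 at 0.97. Elongation factors and their kinases had a median of −0.72, with 19 of 30 below.

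Of 19 SR splicing factors and their kinases 15 lay below, with a median of −0.67 and the kinase CLK1 lowest at −3.90. Spliceosomal snRNP proteins, the core of the splicing machine, lay above at 0.41 with 21 above and 7 below of 36, as did hnRNP proteins at 0.38 with 15 above and 5 below of 29. Among factors that degrade mRNA the median was −0.56 with 29 of 47 below. BTG1, which stimulates deadenylation, fell from 298 and 438 to 0 and 2.60, and the exosome subunit EXOSC5 lay above at 0.98. Of 13 proteins that bind AU-rich elements 7 lay below and 2 above. The decay-promoting ZFP36L2 was the lowest, from 761 and 880 to 10.8 and 8.81, and its relative ZFP36 fell from 38.8 and 67.1 to 0 in both libraries. The stabilising ELAVL1 lay at 0.16, which did not pass the test. Nuclear pore proteins lay near the median gene at −0.17. Of 31, 12 lay below (38.7%, against 29.0% of all genes) and 6 above (19.4%, against 28.7%).

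**Figure D3:**
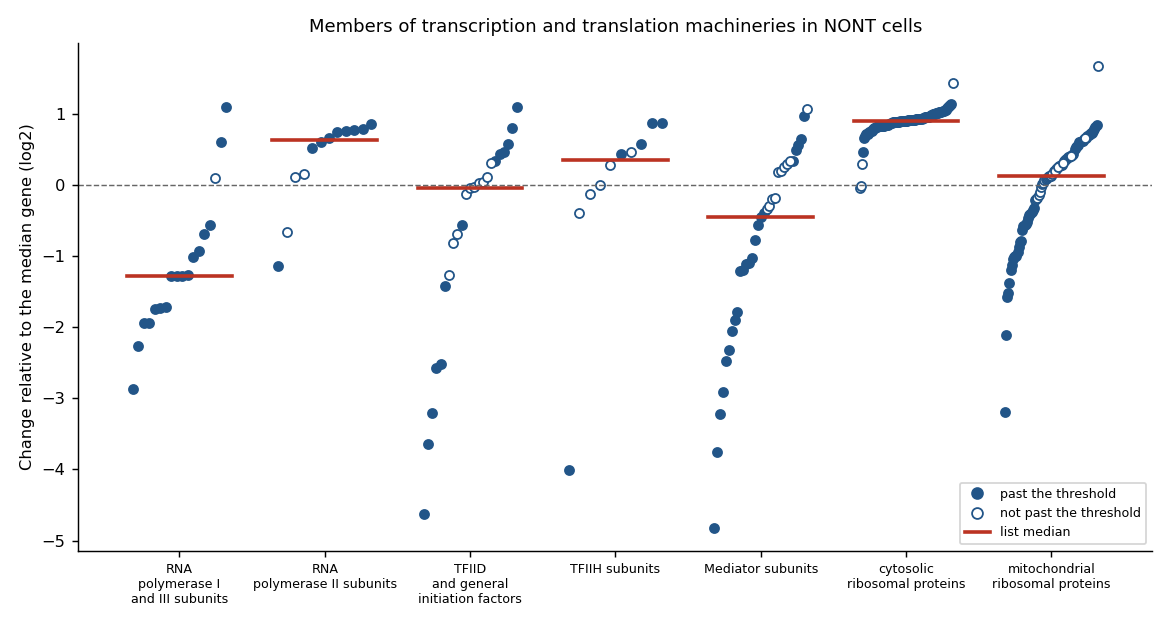
Change of each tested member of 7 machineries relative to the median gene (y axis, log2; dashed line, 0) in NONT cells, sorted within each list; filled points passed an adjusted p-value of 0.05, open points did not, and red lines are list medians. Subunits of RNA polymerases I and III centre on −1.28 and those of polymerase II on 0.63, CDK7 stands apart within TFIIH, and cytosolic ribosomal proteins form a narrow band around 0.90.

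In the integrated stress response, which lowers translation when the kinases that phosphorylate eIF2 are active, 13 of 22 lay below and 6 above. DDIT4, an inhibitor of mTORC1, was 508 and 630 without drug and 0 in both treated libraries, at least 347-fold lower. The phosphatase subunits PPP1R15A and PPP1R15B, which reverse the eIF2 mark, fell from 515 and 806 to 5.60 and 0 and from 800 and 1000 to 7.83 and 0. The transcription factor ATF4 lay only at −1.22 ± 0.06 (SE, adjusted p = 1.7e-07), and the sensor kinases EIF2AK1, EIF2AK2 and EIF2AK4 lay above at 0.66, 0.67 and 0.81. EIF2AK3, the kinase of the endoplasmic reticulum, lay below at −2.51. Heat shock chaperones were also spread widely, with a median of −0.97, 15 below and 7 above of 26. The inducible DNAJB1 fell from 2648 and 3726 to 32.8 and 34.4. HSPA8, the constitutive HSP70, fell from 36664 and 53468 to 4982 and 4273, a relative change of −1.59 ± 0.05 (SE, adjusted p = 2.0e-08). HSP90AB1 lay above at 0.54 and the mitochondrial HSPE1 at 0.82.

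Among 31 targets of p53, the damage-activated tumour suppressor that U2OS cells retain, 17 lay below and 5 above, with a median of −0.91. BBC3, which encodes the killer protein PUMA, fell from 262 and 331 to 1.08 and 0.87, and RPS27L lay highest at 1.08. The cell cycle inhibitor CDKN1A lay closer to the median gene, at −0.40 ± 0.05 (SE, adjusted p = 5.1e-05). In the BCL2 family, which decides on mitochondrial death, the median was −0.65. Of 20 genes 8 lay below (40%, against 29.0% of all genes) and 5 above (25%, against 28.7%). MCL1, a survival protein, fell from 2481 and 3709 to 14.95 and 27.5, a relative change of −5.48 ± 0.37 (SE, adjusted p = 8.0e-07). The mitophagy receptor BNIP3 lay highest at 0.93. Of 28 caspases, apoptosome parts and inhibitors 13 lay below (46.4%) and 5 above (17.9%). The death receptor adaptor FADD fell from 648 and 951 to 3.01 and 4.40, and CYCS, cytochrome c, lay above at 0.62. Of 26 antigen presentation and interferon genes 10 lay above (38.5%) and 5 below (19.2%), with IFITM2 at 1.42 and the factor IRF1 at −4.33.

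Among genes of protein synthesis, those of the cytosolic ribosome had the highest median. Of 85 cytosolic ribosomal proteins 81 lay above the median gene and none below, and the median of 0.90 corresponded to 57.9% of the untreated value. RPL22 was 2745 and 4016 without drug and 2544 and 2068 with it, 1.14 ± 0.09 above the median gene (SE, adjusted p = 3.2e-06). RPL10L, an intronless copy of RPL10, was the lowest at −0.04, against 0.82 for RPL10 itself. Near-identical copies share reads, which makes such values uncertain. Mitochondrial ribosomal proteins, which are translated in the cytosol from nuclear genes, were spread more widely around the median gene: 33 lay above and 26 below of 81, with a median of 0.13 that became −0.06 without the filter on low values. MRPL44 was the lowest at −3.20 and MRPL33 the highest at 0.83. Factors that assemble ribosomes lay lower, at −0.28 with 39 below and 9 above of 73.

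Translation elongation and termination factors had a median of 0.73 with 12 above of 15, and PABPC1, the poly(A)-binding protein, lay highest at 1.03. Initiation factors had a median of 0.43 with 33 above and 9 below of 53, from EIF1B at −2.88 to EIF3H at 0.94. Of 22 cytosolic aminoacyl-tRNA synthetases and their partners 16 lay above and 1 below, the scaffold protein AIMP2 at −1.33.

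Most genes of energy metabolism lay above the median gene. The 13 mRNAs encoded in mitochondrial DNA had a median of 1.26 and 12 of them lay above the median gene. MT-ND4, the highest, was 5492 and 9727 without drug and 6693 and 6535 with it, so that the treated values lay between the untreated ones. Of the 13, 5 were lower on the spike-in scale, against 90.0% of all genes, and none higher, and the median one kept 73.5%. MT-ND1, for example, went from 2586 and 4289 to 2247 and 2238. The only message not called above the median gene was MT-ND6, the single message of the other mitochondrial strand. It was 48.5 and 50.9 untreated and 19.8 and 11.6 treated, a relative change of 0.02. Of 77 nuclear genes for respiratory chain subunits 72 lay above and 2 below, with a median of 0.81. NDUFB2 was highest at 1.19 ± 0.09 (SE) and NDUFV3 lowest at −1.87 ± 0.24. Of 17 glycolytic enzymes 16 lay above, and the exception was HK2, the inducible hexokinase, which fell from 589 and 839 to 167 and 127, a relative change of −0.59 ± 0.11 (SE, adjusted p = 0.00088). ENO2 lay highest at 1.56. Citric acid cycle enzymes lay at 0.67 with 20 above and none below of 26.

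Redox enzymes had a median of 0.74 and 21 of 29 lay above, thioredoxin (TXN) highest at 1.10. The 5 that lay below were HMOX1, GCLC, GCLM, SRXN1 and GLRX2. HMOX1, haem oxygenase, fell from 763 and 1126 to 13.1 and 9.62, a relative change of −4.57 ± 0.20 (SE, adjusted p = 6.7e-08), and GCLC, which makes the glutathione precursor, from 575 and 872 to 55.6 and 28.0. NQO1, a quinone reductase, lay above at 0.77. These genes were singled out after their values were seen. In sterol synthesis the median was −0.05, but SQLE, a regulated step of the pathway, fell from 3702 and 5543 to 169 and 174 while SREBF2, the transcription factor of the pathway, lay above at 0.83. Fatty acid enzymes (0.64, 16 above and 1 below of 26), serine, glycine and folate enzymes (0.63, 13 above and 1 below of 18) and enzymes of pentose phosphate and nucleotide synthesis (0.51, 21 above and 2 below of 32) lay above.

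Several lists of secretion and membrane genes lay above the median gene. On the spike-in scale 453 of the 501 genes of the theme were lower, close to the 90.0% of all genes. The median one kept 40.1%, against 31.4% over all genes. Of 46 lysosomal genes 35 lay above and 2 below, with a median of 0.55 and the sulfatase IDS highest. Genes of translocation, glycosylation and folding in the endoplasmic reticulum had a median of 0.60 with 36 above and 3 below of 44, from DNAJB9, a chaperone induced by unfolded protein, at −1.39 to the translocon subunit SEC61G at 1.12. The proton pump of acidic organelles (0.65, 15 above of 21), COPI and COPII coats (0.49, 15 above of 20), integrins (0.54, 8 above of 16) and matrix proteins (0.53, 19 above of 33) followed. Collagens had a median of 0.24, with single pairings between −0.04 and 0.60. Of 27, 7 lay above (25.9%, against 28.7% of all genes) and none below (against 29.0% of all genes). COL1A1, the main bone collagen, lay at 0.32, which no longer passed the test without untreated replicate 1 or treated replicate 1. Its value was just under 0 with every library set to the same total. Solute carriers lay near the median gene at 0.11 over 226 genes, and Rab GTPases at −0.02 over 52.

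Of 37 proteasome subunits 26 lay above and 2 below, with a median of 0.59 and PSMB10 highest at 1.09. All 14 chaperonin and prefoldin genes had positive values, 12 past the test. F-box proteins and cullins, which choose ubiquitin targets, lay at −0.21 with 26 below and 8 above of 63, and FBXO5, the inhibitor of the anaphase-promoting complex, was lowest at −6.36. Actin and actomyosin genes had a median of 0.65 with 36 of 40 above and none below. Kinesins (−0.43, 14 below and 6 above of 33) and cyclins and CDK regulators (−0.47, 19 below and 8 above of 30) lay lower. The shares below were 42.4% of kinesins and 63.3% of cyclins and CDK regulators, against 29.0% of all genes. The CDK inhibitor CDKN1B fell from 363 and 400 to 0 and 3.96, and WEE1, the kinase that delays mitosis, from 377 and 449 to 9.90 and 14.2, a relative change of −3.33 ± 0.33 (SE, adjusted p = 9.5e-06). Genes of DNA replication (0.02, 19 above and 16 below of 52), mitosis (−0.07, 19 above and 23 below of 55) and DNA repair (−0.11, 11 above and 16 below of 58) lay near the median gene.

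Some members that fell far below the median of their list were genes without introns, singled out here after their values were seen, and others, such as CDK7 with 12 exons, were not. TBCC, a tubulin folding cofactor with 1 exon, fell from 409 and 536 to 4.21 and 1.47 while its list had a median of 0.17. GSPT2, an intronless relative of the termination factor GSPT1, fell from 646 and 829 to 9.03 and 7.34, a relative change of −4.65 ± 0.17 (SE, adjusted p = 3.7e-08), and GSPT1 lay above the median gene at 0.38. CSTF2T, the intronless relative of the polyadenylation factor CSTF2, lay at −3.65 against −0.10 for CSTF2. PCBP1, an RNA-binding protein with 1 exon, lay at −1.27 against 0.52 for PCBP2, and the TFIID subunit TAF7 at −3.21 in a list with a median of −0.05. Outside histones and mitochondrial genes, the lists held 36 tested genes with 1 exon. Of these 30 lay below the median gene and 2 above, where all genes had 29.0% below and 28.7% above. Several came from lists that were already among the lowest, such as 7 SOX and FOX factors. Against the median of their own list, 27 of the 36 lay below. EIF5AL1 and the splicing factor subunit SF3B5 were the 2 above. Replication-dependent histones, which also lack introns, had a median of 0.42, with 5 above (25%, against 28.7% of all genes) and 1 below (5%, against 29.0%) of 20. Their messages normally end in a stem-loop and carry no poly(A) tail. Of the 20, only 8 had an untreated mean of at least 100, and adding 1 to each value moves low genes upward on this scale.

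Transcript structure was compared over the 12995 tested genes with an annotated transcript. The 286 genes with 1 exon had a median relative change of −1.18, with 58.0% below the median gene and 11.9% above. Those with several exons had a median of 0.06, with 28.9% below and 29.6% above. In 5 bins by exon number, medians went from −0.63 for 1 to 4 exons to 0.18 for 18 or more. Length ran the other way: of 5 bins, the one with the shortest transcripts, up to 1874 bases, had a median of 0.48 and the one with the longest −0.18. For 3′ untranslated regions the shortest bin had a median of 0.40 and the longest −0.18. GC content went with little difference, from 0.02 in the lowest bin to 0.12 in the highest. The relations were weak, with Spearman's rho over genes of 0.17 for exon number, −0.19 for transcript length and −0.17 for the length of the 3′ untranslated region.

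**Figure D4:**
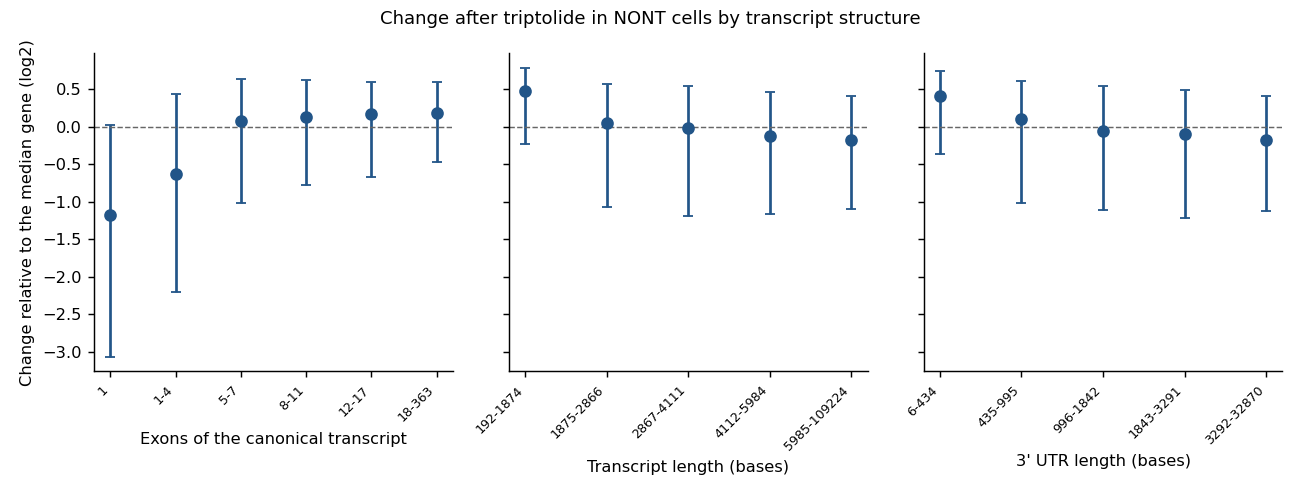
Median change relative to the median gene (points; y axis, log2) with lower and upper quartiles (bars) for genes binned by number of exons, transcript length and length of the 3′ untranslated region; the first bin of the left panel holds single-exon genes, which are also part of the second. Single-exon genes lie at −1.18 and the shortest transcripts at 0.48.

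The unequal loss changed what the remaining mRNA was made of. Cytosolic ribosomal proteins held 6.87% and 6.62% of the summed gene values in the untreated libraries and 9.68% and 10.2% in the treated ones. Glycolytic enzymes went from 2.14% and 2.22% to 2.86% and 2.86%, actin and actomyosin genes from 3.76% and 3.82% to 4.63% and 4.66%, and mitochondrially encoded mRNAs from 0.513% and 0.602% to 1.01% and 1.18%. Heat shock chaperones went the other way, from 1.52% and 1.58% to 1.32% and 1.39%. Immediate early factors held 0.116% and 0.110% before and 0.0150% and 0.0125% after. Treated and untreated libraries did not overlap in any of these lists. A two-sided exact permutation test gave p = 0.333 for each, the smallest that 2 against 2 libraries allow. Most other lists were separated in the same way, so the separation does not single these out. Over all lists, shares overlapped only in the E2F, MYB and RB family, DNA repair genes, collagens, TFIIH, hnRNP proteins, snRNP proteins and matrix proteins. The values were not divided by transcript length, so shares follow reads and not molecules. The 10 genes with the largest untreated shares (ACTB, EEF1A1, HSP90AB1, GAPDH, ENO1, PKM, FLNA, VIM, COL1A1 and TUBA1B) all lay above the median gene, between 0.32 and 0.79.

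**Figure D5:**
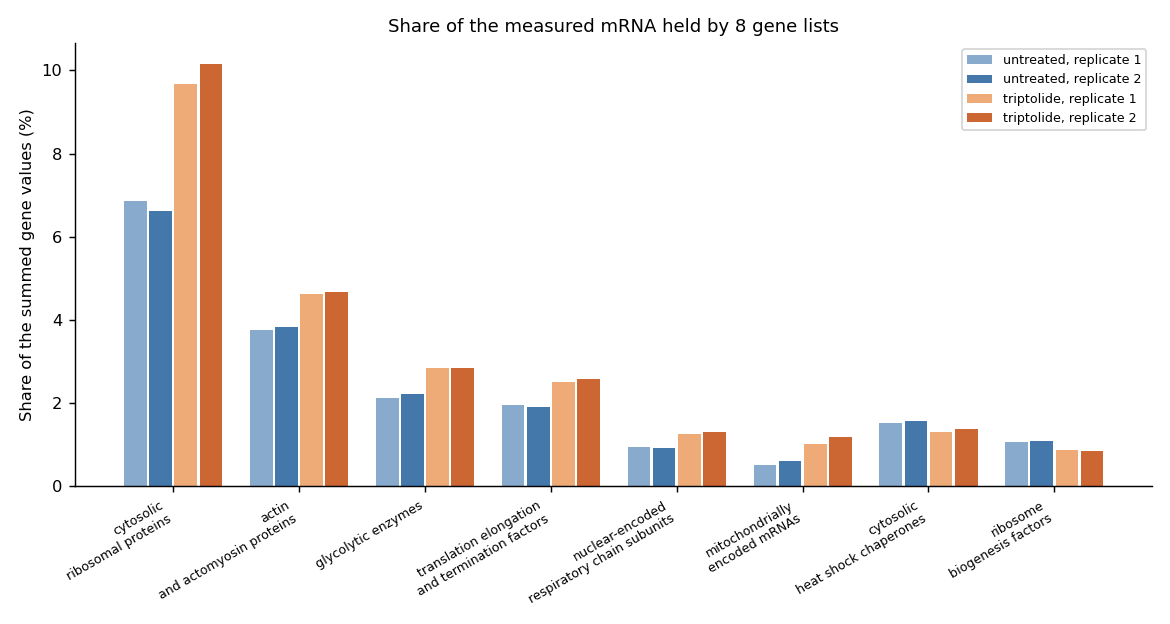
Share of the summed gene values (y axis, %, from 0) held by 8 lists in each NONT library; blue bars are untreated and orange bars treated libraries. Cytosolic ribosomal proteins take 6.62% to 6.87% without drug and 9.68% to 10.2% with it, and the 2 lists on the right take a smaller share with the drug.

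Over all genes, the 10 furthest below the median gene with a mean of at least 100 were FASTKD5, DUSP1, DDIT4, JUN, CITED2, MYC, PPP1R15B, NFKBIA, PRAG1 and ENSG00000206478. FASTKD5, which processes mitochondrial RNA, fell from 526 and 729 to 0 in both treated libraries, at least 383-fold. CITED2, a transcriptional coregulator, fell from 1092 and 1474 to 2.37 and 2.56. In all, 125 tested genes were listed at 0 in both treated libraries. At the other end, few genes kept their untreated value. SYTL2, a vesicle protein, was 264 and 339 untreated and 317 and 332 treated, 1.79 ± 0.13 above the median gene (SE, adjusted p = 1.3e-06), and its spike-in change of 0.12 ± 0.20 (SE) did not pass the test. PLXNA3, a semaphorin receptor, was 307 and 312 untreated and 300.3 and 287 treated. The GTPase regulator ARHGAP18 was 100.0 and 104 untreated and 93.4 and 104 treated. ANKRD30BL was higher on the spike-in scale, from 70.8 and 95.0 to 482 and 173, as was FAM83H, from 8.55 and 0 to 286 and 67.1, where the replicates differed widely.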

How the data were processed

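The analysis covered 12 libraries of poly(A)-selected RNA from U2OS cells, with 2 replicates in each of 6 groups taken from the sample labels. Per the labels and the study's methods, the authors added ERCC RNAs per cell, quantified reads with kallisto 0.46.1, summed them per gene, scaled each library with DESeq2 size factors computed on the ERCC transcripts and kept genes that code for proteins. What the authors deposited is thus a normalised signal, not counts; at most 24.2% of low values were whole multiples of 1 read (within 0.01 reads), so no count model was used. An error in cell number or spike-in volume moves a whole library. The 92 ERCC rows were left out of tests. No column gives culture, litter or day, so p-values measure the spread between these samples, which may be technical.

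The members and the lists were chosen with earlier results of these data known. Values were analysed as log2(value + 1), which understates changes of low genes on the spike-in scale. On the relative scale it moves low genes upward: ENSG00000275246, at 0 in every NONT library, had a relative change of 1.67. The fits used limma 3.58.1 in R 4.3.3 (6 group means, trend, two-sided, Benjamini-Hochberg over 13811 genes). They were run on the values as deposited and after shifting each library by the median over genes of its difference from the gene means. The test was checked on simulated data. Lists were described by counts and medians without a test. Symbols and transcripts came from GENCODE 44 (GRCh38): 12995 tested genes matched, and 816 did not and keep their ID. Of the tested rows, 474 were identical to another. Genes named were the lowest and highest member of each list or symbol family with an untreated mean of at least 100, the 10 furthest per direction on each scale, the 10 largest, and MYC, WEE1, JUN and MCL1, which the study calls short-lived; other members were named after their values were seen. Summaries were made with Python 3.11.15, pandas 2.3.3 and SciPy 1.17.1, and figures with matplotlib 3.10.9. A marker on the lists is not reported here. Depth was estimated and limits cover counting error only. Alternatives were other pseudocounts, filters, scalings, spread estimates and leaving out each library.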

Additional observations from a re-analysis of the deposited data

Results flagged for a closer look

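Some responses in NONT cells differed from those of another genotype by a test of the difference itself, on the scale relative to the median gene. Against NUP93 cells 4 genes passed and against EXOSC5 cells 13; those on a list are given here, as NONT minus the other genotype, from limma. MYC fell further in NONT, by a difference of −2.62 ± 0.27 (SE, adjusted p = 0.021), with 27.2 and 33.6 left in treated NUP93 cells against 2.39 and 1.74 in NONT. The stress gene GADD45A differed by −1.58 (adjusted p = 0.021) and the collagen gene COL12A1 by −1.09 (adjusted p = 0.047).

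Against EXOSC5 cells the immediate early genes IER2 and FOSL2 differed by −2.04 (adjusted p = 0.0093) and −1.72 (adjusted p = 0.040). HSPA8 differed by −0.78 ± 0.07 (SE, adjusted p = 0.0041), with 4982 and 4273 left in treated NONT cells and 10888 and 11061 in treated EXOSC5 cells. ZNF526 differed by −8.13 (adjusted p = 0.0093), and its untreated value was 286 and 330 in NONT but 0 and 1.22 in EXOSC5 cells. All 7 of these genes had the lower relative change in NONT, as had 3 of the 4 and 12 of the 13 genes in all. The others were ENSG00000250264 (a difference of 6.28 from NUP93 cells) and ENSG00000275246 (7.15 from EXOSC5 cells), both listed at 0 in the untreated NONT libraries. ENSG00000275246 was also at 0 in the treated NONT libraries, so its NONT value of 1.67 is only the shift taken out and no response. The difference rests on 2 libraries per arm.

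Relative to the median gene, 2 lists had medians of opposite sign in NONT and another genotype in all pairings, and these differences were not tested. On the spike-in scale the NONT medians were −1.25 for replication-dependent and −1.43 for replacement histones. The mean over pairings of the median of replication-dependent histones was 0.50 in NONT (0.46 to 0.57) and −0.15 in NUP93 cells (−0.24 to −0.04). Only 8 of the 20 tested genes of that list had an untreated NONT mean of at least 100. The mean for replacement histones was 0.21 in NONT (0.06 to 0.33) and −0.09 in EXOSC5 cells (−0.12 to −0.07).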

How the results depend on the processing

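On the spike-in scale the count of higher genes was the least stable: 7 became 35 with no filter on low values, 15 with NONT libraries alone, 11 with the same mitochondrial sum, 2105 with the same total, and 7 to 16 when each NONT library was left out. With the same total 5270 genes were lower, and the median change was −0.32, against −1.28 with the same mitochondrial sum. Leaving out each library gave 10966 to 12414 lower genes and medians of −1.89 to −1.37.

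Relative to the median gene, 6263 genes lay above with library medians, 2105 with the same total and 1249 with a distance of at least 0.5; leaving out each library gave 3359 to 3640 below and 3347 to 3558 above. With library medians CFAP20 reversed to 0.13, NPC1 to 0.11 and RPL36AL to 0.26, with the same total COL1A1 reversed to −0.0150, and with no filter the median of mitochondrial ribosomal proteins reversed to −0.059. The cause was not tested. Lists with a median below 0 in all pairings numbered 33 to 38 and those above 27 to 35 over the alternatives run for lists. Of 294 named genes past the test, 24 lost the call in at least 1 leave-one-out fit and none reversed; FOXM1, COL1A1, NPC1, RC3H1, SRPK1 and H4C15 were among them.

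Same-numbered samples did not deviate together gene by gene (r = 0.0059 over genes in NONT) once each library was shifted to the median gene. A shift of whole libraries shared by same-numbered samples could not show in this check. With the replicate block 12346 genes were lower and 15 higher, and 3884 lay below and 3794 above the median gene. Depth limits all values under about 3 reads.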

Other observations

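Symbol families outside the lists showed further groups. The intraflagellar transport genes (IFT), which build cilia, had a median relative change of 0.68 with 9 above the median gene and none below of 15, and IFT52 was highest at 0.95. Palmitoyltransferases (ZDHHC) lay at 0.60 with 10 above and 3 below of 23, the GALNT enzymes, which start mucin-type glycosylation, at 0.58 with 9 above and 1 below of 17, and tetraspanins (TSPAN) at 0.49 with 8 above and 2 below of 16. Among families of regulators, nuclear receptors (NR) lay at −1.04 with 10 below and none above of 18, KCTD adaptors at −1.02 with 11 below and 2 above of 19, RNF genes at −0.92 with 33 below and 10 above of 66, and TRIM genes at −0.78 with 22 below and 4 above of 51. RBM genes, which encode RNA-binding proteins, lay at −0.88 with 23 below of 36, and RBM3, a cold-inducible protein, was the 1 above, at 0.69.

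By chromosome, medians of nuclear genes lay between −0.08 on chromosome 20 and 0.34 on chromosome X, where 38.4% of 502 genes lay above the median gene and 18.7% below. Chromosome 19 lay at −0.05 with its numbered zinc finger genes and at 0.22 over the 748 genes without them. By untreated level, the highest of 5 bins of genes had a median of 0.41 with 57.9% above, and the middle bin −0.23 with 41.1% below.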
